A study of Mus musculus with 18 samples.

Results

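The keratin genes of the mouse were examined for H3K36me2 and H3K27me3 in epidermis that expresses H3K36M, a histone H3 whose lysine 36 is replaced by methionine and which blocks methylation at that position. Members were all 53 protein-coding genes of the RefSeq annotation of GRCm38 whose symbol is Krt followed by a digit, out of 21900 protein-coding genes. Of these, 27 lie on chromosome 11 and 26 on chromosome 15, and a region was counted as belonging to a gene when it overlapped the gene body or the 5 kb on either side of it. CUT&RUN, a method that frees the DNA around a chromatin mark with an antibody-guided nuclease, had been run on epidermal cell suspensions of 6 mice with antibodies to H3K36me2, to H3K27me3 and with control IgG. The mutant group is 3 mice of genotype Krt14-Cre(+); LSL-H3K36M, and the WT group is 3 mice of genotype Krt14-Cre(-); LSL-H3K36M, so the mice called WT carry the silent H3K36M construct too. The sources used here state no age, sex or strain. Cre is driven by the promoter of Krt14, itself one of the members, so H3K36M is switched on in basal keratinocytes and their progeny, while cells of other lineages in the suspension lie outside that driver.

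Keratins are the intermediate filament proteins of epithelia. A type I keratin, encoded on chromosome 11 with the exception of Krt18, pairs with a type II keratin, encoded on chromosome 15, and each layer or appendage of skin uses its own pairs: Krt5 with Krt14 in basal cells, Krt1 with Krt10 above them, Krt6 with Krt16 and Krt17 in wounded or follicular epidermis, Krt8 with Krt18 in simple epithelia, and further pairs in the hair shaft and the inner root sheath. H3K36me2 is a broad mark of genes and of the space between them that limits Polycomb, and H3K27me3 is the mark that Polycomb deposits on silent genes. Neither mark measures expression.

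For H3K36me2 the deposited island table holds reads of 1 pool per genotype, 59539924 mutant and 47361190 WT reads, and for H3K27me3 and a second H3K36me2 analysis the deposited DiffBind tables hold genotype means over windows of 401 bp. Values of single animals are therefore not shown, island calls compare 2 pools of reads and not animals, and a mark on fewer cells and less of the mark per cell cannot be told apart. Of the 6 keratinocyte markers Krt5, Krt14, Krt15, Trp63, Krt1 and Krt10, 4 had an H3K36me2 island, where 20.6% of all protein-coding genes did. Of the markers of other cells, islands were found at 0 of 5 simple epithelial, 2 of 4 melanocyte, 1 of 4 immune, 1 of 4 fibroblast and endothelial and 0 of 3 Merkel cell genes, too few genes to set these lists apart from that share, and the part of cell composition in the results was not tested.

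The promoter windows of 3 genes are shown because each stands beside a result: Krt13 has its start inside an island with less H3K36me2 in the mutant, Krt5 lies next to 1 of the 2 islands with more, and Krt18 lies next to a window with less H3K27me3. They are RefSeq sequences of GRCm38.p6 that run 5′ to 3′ along the gene from 250 bases before the start to 50 bases after it, at chr11:100121517-100121816 (minus strand), chr15:101712856-101713155 (minus strand) and chr15:102027966-102028265 (plus strand). Capitals mark CpG dinucleotides.
Krt13: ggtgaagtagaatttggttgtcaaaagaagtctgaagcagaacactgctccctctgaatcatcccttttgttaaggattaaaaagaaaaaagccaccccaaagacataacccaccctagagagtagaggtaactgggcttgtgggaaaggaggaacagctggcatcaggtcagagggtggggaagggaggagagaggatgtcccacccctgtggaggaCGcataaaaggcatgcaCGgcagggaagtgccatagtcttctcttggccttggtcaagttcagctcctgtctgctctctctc
Krt5: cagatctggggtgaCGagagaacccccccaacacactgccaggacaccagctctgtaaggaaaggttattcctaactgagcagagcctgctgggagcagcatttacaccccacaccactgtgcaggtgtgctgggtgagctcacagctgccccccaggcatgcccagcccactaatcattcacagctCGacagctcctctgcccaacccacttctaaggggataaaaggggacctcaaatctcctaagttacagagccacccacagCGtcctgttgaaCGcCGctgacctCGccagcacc
Krt18: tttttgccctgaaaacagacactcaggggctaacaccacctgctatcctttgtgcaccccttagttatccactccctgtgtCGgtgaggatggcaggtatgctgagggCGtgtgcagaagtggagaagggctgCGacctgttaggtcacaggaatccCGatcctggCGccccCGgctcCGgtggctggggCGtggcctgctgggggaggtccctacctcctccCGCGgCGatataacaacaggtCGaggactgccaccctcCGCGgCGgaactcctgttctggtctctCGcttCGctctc

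H3K36me2 was compared first, since H3K36M blocks it. Islands are stretches in which the SICER program found the mark enriched, and each carries a false discovery rate (FDR) for a difference in reads between the pools. Of the 15 islands at keratin genes, 9 were lower in the mutant, 2 were higher and 4 passed the authors' FDR of 0.05 in neither direction. Over all 13409 islands 58.1% were lower and 17.3% higher, so the shares at keratins (60.0% and 13.3%) were near those of the genome. The 2 higher islands lay at Krt14 and Krt5, which encode the filament pair of basal keratinocytes, and hair shaft keratins of chromosome 11 held most of the lower ones. The median log2 fold in the authors' deposited table was -0.27 for the 15 islands. It was -0.30 for all islands and -0.18 for those within 5 kb of a protein-coding gene. An exact binomial test on the reads, scaled to the pool totals, called 6 of the 15 lower and 1 higher, against 47% and 10.2% of all islands. The calls depend on that scaling: relative to the median fold of all islands the same test called 1 lower and 3 higher (13.4% and 27.4% of all islands), and scaled to the reads in islands it called 2 lower and 2 higher (22.2% and 22%).

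**Figure D1:**
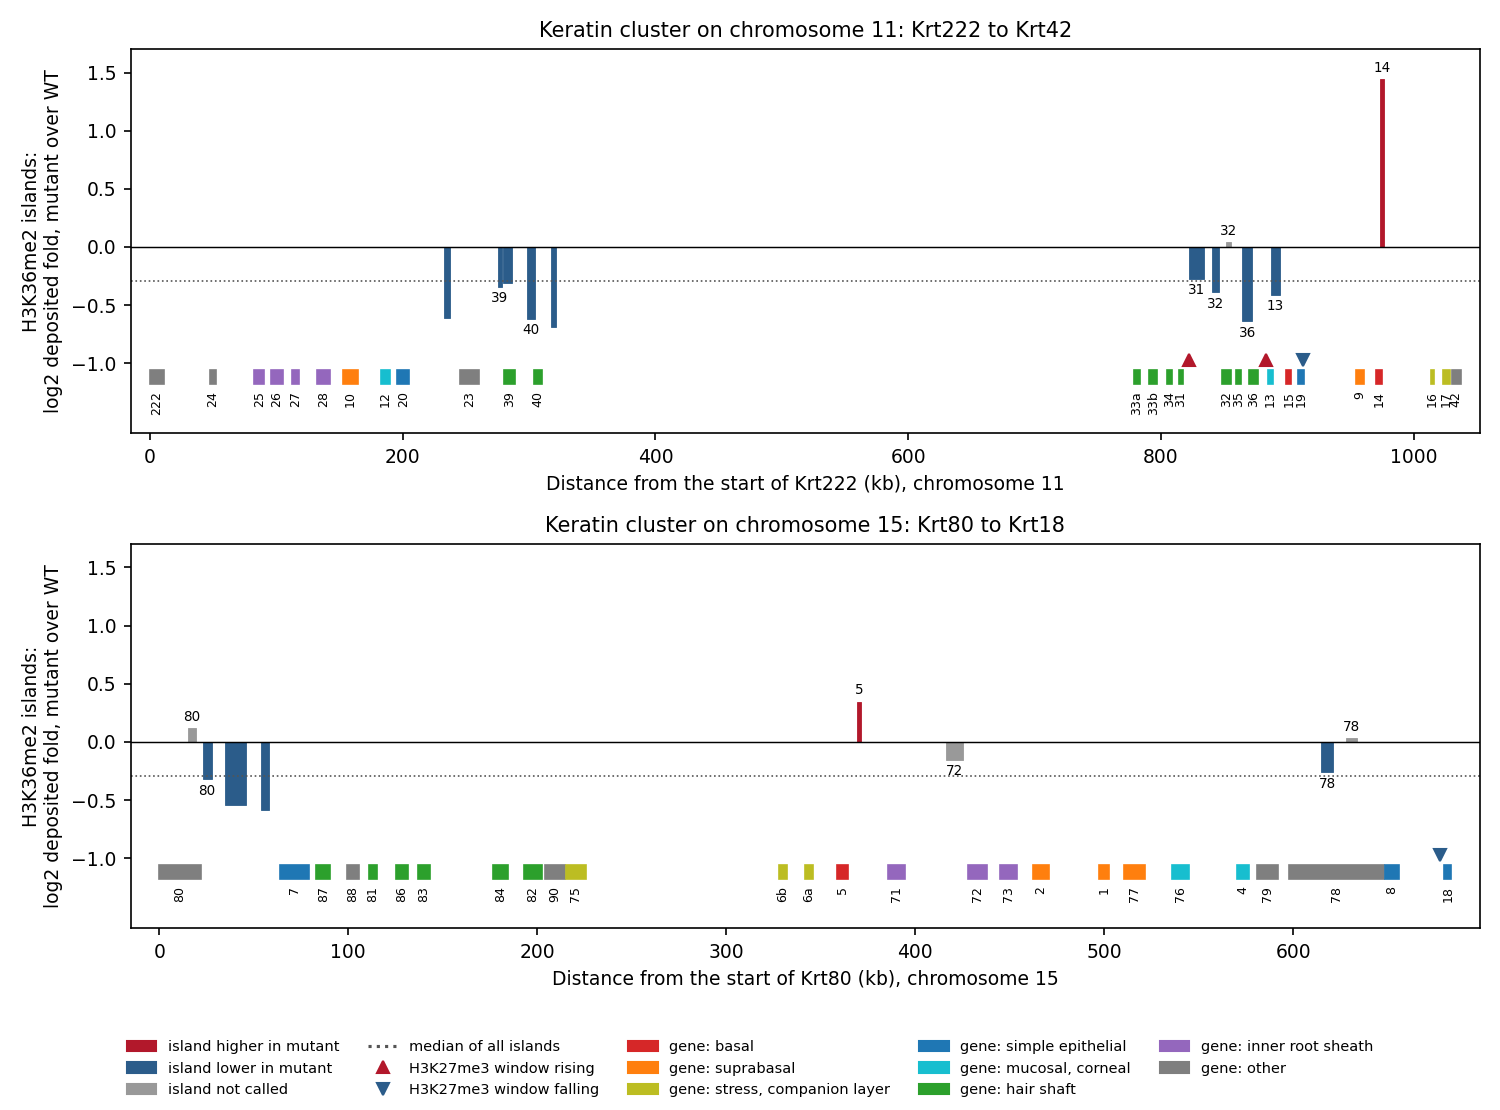
Keratin clusters on chromosome 11 (top) and chromosome 15 (bottom), with distance in kb from the first keratin gene on the x axis and the log2 deposited fold of each H3K36me2 island, mutant over WT, as bars with the number of the nearest keratin (very narrow bars are widened to be visible, and bars with no number lie over 5 kb from a keratin gene or beside a bar of the same gene). Boxes are keratin genes coloured by role and triangles are called H3K27me3 windows: the tall bar at Krt14 stands apart from the other islands, which lie between -0.69 and 0.35.

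Basal keratins, which fill the proliferating layer that rests on the basement membrane, had an island within 5 kb at all 3 genes examined. The share over all protein-coding genes was 20.6%. Only the Krt14 island overlaps the body of its basal gene. Roles were assigned after the values were seen, so nothing particular to the class is read from this count. The island at Krt14 lies on chromosome 11 from 100207401 to 100208000 and covers the 5′ end of the gene body. It held 57 mutant and 16 WT reads, a read ratio of 2.83 after scaling to the pool totals (exact binomial 95% interval 1.60 to 5.29), and the authors' deposited table gave FDR 5.30e-10. Its mutant density, 1.60 RPM per kb (RPM being reads scaled to the pool total), was the highest of the 15 islands, and its WT density, 0.563, the lowest. Over the other 14 islands, densities ran between 0.367 and 0.809 RPM per kb in the mutant and between 0.564 and 0.882 in WT. The island is 600 bp wide, with only 1.62% of all islands as narrow or narrower, and its fold in the authors' deposited table ranks 3 of 13409 from the top. Islands were called from these same reads, so a high mutant count can itself bring a narrow island into the list. The FDR, interval and rank are therefore not independent of how the island was found. The mutant mice carry a Cre driven by the Krt14 promoter and the WT mice do not; the sources used here do not state where that promoter sequence comes from, so reads from the gene and from the transgene cannot be told apart.

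The island at Krt5, the partner of Krt14, lies on chromosome 15 from 101717401 to 101719600, 4496 bp upstream of the gene. It held 106 mutant and 66 WT reads, a ratio of 1.28, and the authors' deposited table gave FDR 0.0385. The interval of that ratio, 0.931 to 1.76, included 1, and the exact binomial test adjusted over all islands made no call (adjusted p = 0.185). Its mutant density of 0.809 RPM per kb was second to that of Krt14 among the 15 islands. The ratio at Krt14 was 2.22 times that at Krt5 (exact 95% interval 1.14 to 4.48, for counting error only). Krt15, a keratin of basal cells and of follicle stem cells, had no island of its own: the only one within its flank, 4959 bp away, is the lower island of Krt13.

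**Figure D2:**
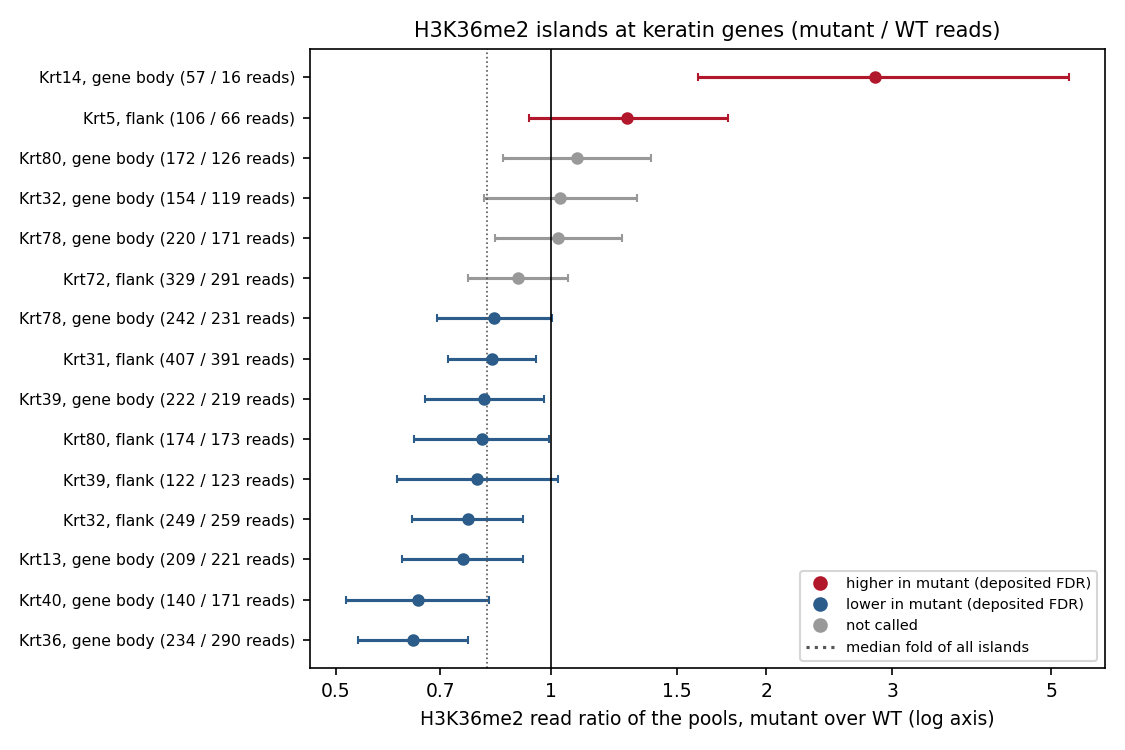
H3K36me2 read ratio of the mutant over the WT pool (log x axis) for the 15 islands at keratin genes, with exact binomial 95% intervals that cover counting error only; each row names the gene, whether the island overlaps its body, and the mutant and WT reads. The interval at Krt14 lies wholly above 1, 6 of the 9 lower islands have intervals that reach no higher than 0.976, and the dotted line marks the median fold of all islands, 0.814.

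Hair shaft keratins, the cysteine-rich filaments of the hard hair fibre, had an island at 6 of 15 genes, each with a lower one (40.0%, where 20.6% of all protein-coding genes had an island and 12.2% a lower one). Some of the 6 share an island, so the genes are not independent and nothing particular to the class is read from this count. All 6 are among the 9 type I hair keratins of chromosome 11, while 0 of the 6 type II hair keratins of chromosome 15 had an island. The island with the lowest fold of the 15 overlapped Krt36 and reached the flank of Krt35, on chromosome 11 from 100097001 to 100104800. It held 234 mutant and 290 WT reads, a ratio of 0.642 (0.538 to 0.765), and the authors' deposited table gave FDR 1.01e-11, and it alone was still called lower relative to the median fold of all islands. At Krt40, whose island runs from 99530801 to 99537200, 140 mutant and 171 WT reads gave a ratio of 0.651 (0.517 to 0.819), and the authors' deposited table gave FDR 2.86e-07. The density there was 0.367 RPM per kb in the mutant, the lowest of the 15, and 0.564 in WT.

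Krt39 had an island of 222 mutant and 219 WT reads over its body, a ratio of 0.806 (0.666 to 0.976), and the authors' deposited table gave FDR 0.00192. A second island 1360 bp beyond its 3′ end held 122 mutant and 123 WT reads, a ratio of 0.789 (0.609 to 1.02), and lost its call in the exact binomial test (adjusted p = 0.110). The widest island of the 15, 12200 bp, began 4250 bp upstream of Krt31 and held 407 mutant and 391 WT reads, a ratio of 0.828 (0.719 to 0.954), and the authors' deposited table gave FDR 3.19e-04. Relative to the median fold of all islands the ratio at Krt31 was 1.02, on the other side of 1. At Krt32 the island in the 3′ flank held 249 mutant and 259 WT reads, a ratio of 0.765 (0.640 to 0.914), and the authors' deposited table gave FDR 4.32e-05. The island over the body of Krt32, which is also in the flank of Krt35, held 154 mutant and 119 WT reads, a ratio of 1.03 (0.805 to 1.32), and was called in neither direction. The remaining hair keratins of chromosome 11, Krt33a, Krt33b and Krt34, had none within 5 kb, and neither did Krt81, Krt82, Krt83, Krt84, Krt86 and Krt87 on chromosome 15.

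Among the mucosal and corneal keratins, Krt13, which pairs with Krt4 in the oral mucosa and oesophagus, had 1 lower island, on chromosome 11 from 100120001 to 100126800. It covers both starts that RefSeq lists for Krt13 and held 209 mutant and 221 WT reads, a ratio of 0.752 (0.620 to 0.913), and the authors' deposited table gave FDR 6.13e-05. No island was within 5 kb of Krt4, Krt12, the corneal keratin, or Krt76. Of the inner root sheath keratins, which shape the growing hair, Krt72 had an island 2372 bp beyond its 3′ end with 329 mutant and 291 WT reads, a ratio of 0.899 (0.766 to 1.06), called in neither direction (the authors' deposited table gave FDR 0.0588). Krt25, Krt26, Krt27, Krt28, Krt71 and Krt73 had none.

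Krt78 and Krt80, type II keratins of differentiating epithelia, had 2 islands each, 1 of them lower. In the body of Krt78 the island from 101963201 to 101969400 held 242 mutant and 231 WT reads, a ratio of 0.833 (0.693 to 1.0), and the authors' deposited table gave FDR 0.00614, and the exact binomial test made no call (adjusted p = 0.0840). The other Krt78 island, 6600 bp away, held 220 mutant and 171 WT reads, a ratio of 1.02 (0.834 to 1.26). Both count as body islands only by the annotated gene body. The promoter start that RefSeq lists for Krt78, at 101954287 on the minus strand, lies inside that body. Both islands are upstream of this start, further away than the 5 kb flank. Beside Krt80, the island 1039 bp outside the gene held 174 mutant and 173 WT reads, a ratio of 0.800 (0.644 to 0.993), and the authors' deposited table gave FDR 0.00400, and it too lost its call in the exact binomial test (adjusted p = 0.0704). The island within Krt80 held 172 mutant and 126 WT reads, a ratio of 1.09 (0.858 to 1.38), and was called in neither direction. Neighbouring islands of the same gene were compared in 5 pairs by dividing the larger ratio by the smaller, which gives at least 1 by construction. The exact 95% interval of that quotient lay above 1 only for the pair flanking Krt35, 1.60 times (1.18 to 2.18), and included 1 for Krt32 (1.35, 0.991 to 1.83), Krt80 (1.36, 0.982 to 1.88), Krt78 (1.23, 0.930 to 1.62) and Krt39 (1.02, 0.739 to 1.41).

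The following 3 classes of keratin had no island within 5 kb at any gene. They are the 5 suprabasal keratins (Krt1, Krt2, Krt9, Krt10 and Krt77), the 5 keratins of stressed epidermis and the follicular companion layer (Krt6a, Krt6b, Krt16, Krt17 and Krt75), and the 5 simple epithelial keratins (Krt7, Krt8, Krt18, Krt19 and Krt20). The median distance to the nearest island was 68352 bp for the suprabasal, 31699 bp for the stress and companion layer and 14711 bp for the simple epithelial keratins, and 25290 bp for all 53. An absent island says only that neither pool passed the island caller there. Of all 53 keratins 40 had none, and only 20.6% of all protein-coding genes had an island. Each class holds 5 genes and roles were assigned after the values were seen, so nothing particular to these classes is read from the absence. The remaining keratins without an island were Krt23, Krt24, Krt42, Krt79, a keratin of the follicle canal and sebaceous duct, Krt88, Krt90 and Krt222.

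Counted by gene, 13 of the 53 keratins had an island (24.5%, against 20.6% of all protein-coding genes), 10 had a lower one (18.9%, against 12.2%) and 2 a higher one (3.77%, against 7.19%). Among protein-coding genes with an island, 59.2% had a lower and 34.9% a higher one, against 10 and 2 of the 13 keratins. None of the 13 had islands called in both directions. Neighbouring keratins share islands, so the genes are not independent. The threshold of 5 kb matters for some members: Krt15 at 4959 bp, Krt5 at 4496 bp and Krt31 at 4250 bp are just inside it, while Krt7 at 6203 bp and Krt23 at 7773 bp are just outside. The nearest island to Krt7 held 114 mutant and 136 WT reads (ratio 0.667) and that to Krt23 121 and 147 (ratio 0.655), both lower.

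The intervals between the first and the last keratin gene were then taken as wholes. On chromosome 11 the interval from Krt222 to Krt42, from 99232761 to 100269951, held 11 islands, of which 9 were lower, 1 was higher and 1 was called in neither direction. They covered 63.0 kb, 6.07% of the interval, against 3.12% of the stretch between the outermost islands of that chromosome. Their summed reads were 2023 in the mutant and 2095 in WT, a ratio of 0.768 (exact binomial 95% interval 0.722 to 0.817), with densities of 0.539 and 0.702 RPM per kb. All islands of chromosome 11 together had a ratio of 0.865. On chromosome 15 the interval from Krt80 to Krt18, from 101348315 to 102032026, held 8 islands over 47.2 kb, 4 lower, 1 higher and 3 in neither direction, with 1687 mutant and 1576 WT reads. These islands covered 6.90% of the interval, against 3.30% of the stretch between the outermost islands of that chromosome. Their ratio was 0.851 (0.795 to 0.913), with densities of 0.600 and 0.705 RPM per kb, and that of all islands of chromosome 15 was 0.823. The WT densities of the clusters were thus nearly equal, and the ratio on chromosome 11 was 0.902 times that on chromosome 15 (exact 95% interval 0.822 to 0.990, for counting error only). Scaled to the median fold of all islands, the ratios became 0.943 and 1.05, so the direction on chromosome 15 turned.

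Islands were spread unevenly within both clusters. On chromosome 11 a stretch of 500.4 kb with no island lay between an island at Krtap3-3 and that of Krt31. It holds 41 protein-coding genes, among them 22 keratin-associated protein genes, which encode the matrix of the hair fibre, and the hair keratins Krt33a, Krt33b, Krt34 and Krt31. The island at Krtap3-3 at its edge, with 108 mutant and 139 WT reads, had a ratio of 0.618 (0.476 to 0.800), the lowest of the interval. On chromosome 15 the longest stretch with no island, 311.2 kb, ran between an island near Krt7 and that of Krt5 and holds 13 keratin genes, from Krt7 to Krt5. Between Krt80 and Krt7 a further island of 10800 bp, with 330 mutant and 382 WT reads, had a ratio of 0.687 (0.591 to 0.798). DiffBind, which uses the spread between animals, listed 0 H3K36me2 windows at keratin genes: 0 at FDR 0.05, where 0% of the 18072 windows tested were called, and 0 at a nominal p under 0.05, where 4.04% were. Windows of larger p are not listed in the deposited table, so this says nothing of their levels.

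H3K27me3 was compared next. DiffBind listed 4 windows at 4 of the 53 genes, where 9.89% of protein-coding genes had one, and H3K27me3 fell at Krt18 and Krt19, keratins of simple epithelia, and rose at Krt31, a hair shaft keratin, and Krt13, the mucosal keratin. Over all 18072 windows tested 15.2% fell and 8.54% rose, and by gene 7.43% of protein-coding genes had a falling and 2.64% a rising window, against 2 of 53 keratins (3.77%) for each direction. Levels below are genotype means over 3 animals each, converted from log2 normalised reads, with no spread between animals among the deposited columns.

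The falling windows carried more of the mark in WT than the rising ones, as they did over all listed windows, whose median WT mean was 51.6 normalised reads for falling and 3.88 for rising ones. At Krt18, in a window on chromosome 15 from 102025876 to 102026276 that lies 1940 bp upstream of the gene, the mean was 43.2 normalised reads in the mutant and 82.4 in WT. The authors' deposited table gave a log2 fold of -0.87 at FDR 3.06e-04. At Krt19 the window lies within the gene body on chromosome 11 from 100145008 to 100145408, 518 bp from the end of the gene with the higher coordinate. It had 20.4 mutant and 42.2 WT normalised reads, and the authors' deposited table gave a log2 fold of -0.92 at FDR 0.00657. Neither window was near an H3K36me2 island: the nearest was 43876 bp away for Krt18 and 18208 bp away for Krt19. Of the 3 Merkel cell markers, 2 had a falling window, where 7.43% of all protein-coding genes had one. Sox2 had 39.3 mutant and 101.8 WT normalised reads, and Atoh1 had 73.1 mutant and 143.4 WT. The third marker, Krt20, had no listed window, and 3 genes are too few to set the list apart from that share. Merkel cells are known to express Krt18, and the part of these cells in the Krt18 result was not tested. Of the 4 fibroblast and endothelial markers, Pdgfra fell (70.2 mutant and 132.2 WT normalised reads) and Pecam1 rose (24.8 mutant and 4.05 WT), and no melanocyte or immune marker had a listed window. Krt8, the partner of Krt18, and the other simple epithelial keratins Krt7 and Krt20 had no listed window.

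At Krt31 the window on chromosome 11 from 100054884 to 100055284, 4333 bp upstream of the gene, had 8.27 mutant and 1.01 WT normalised reads, and the authors' deposited table gave a log2 fold of 1.38 at FDR 0.0108. The WT mean, close to 1 normalised read, stands at percentile 2.66 of the WT means of all listed windows. At Krt13 the window from 100115788 to 100116188, 1139 bp beyond the 3′ end of the gene, had 12.6 mutant and 3.96 WT normalised reads, and the authors' deposited table gave a log2 fold of 1.09 at FDR 0.0342. The log2 difference between the printed means is larger than the deposited fold at both, 3.04 at Krt31 and 1.67 at Krt13, so the size of these rises depends on which of the measures is read. Both windows passed the FDR of 0.05 but not 0.01.

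**Figure D3:**
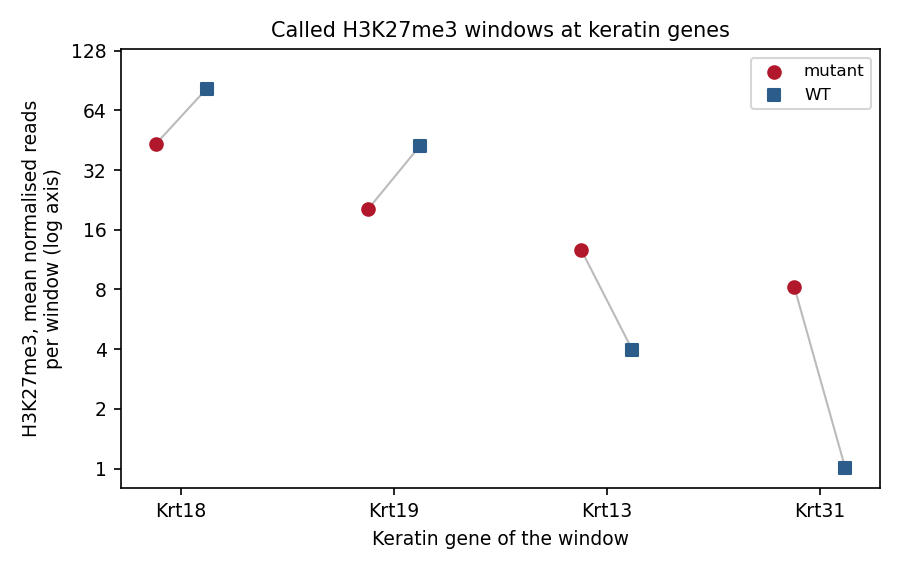
Mean H3K27me3 in normalised reads (log y axis) of the 4 called windows at keratin genes, with the mutant mean as a circle and the WT mean as a square to its right, each over 3 animals. At Krt18 and Krt19 the mutant means, 43.2 and 20.4, lie below the WT means, and at Krt13 and Krt31 the mutant means, 12.6 and 8.27, lie above them.

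Called regions of the 2 marks overlapped at Krt31 only, and at Krt13 they lay apart. The rising Krt31 window lies inside the lower H3K36me2 island upstream of that gene, and the rising Krt13 window lies 3813 bp from the lower island of Krt13. Over all listed windows 17.4% of the 1543 rising and 0.0365% of the 2742 falling ones lay in a lower H3K36me2 island. In an island of any call lay 18.7% of the rising and 0.219% of the falling ones. Falling windows were thus rarely in any island, whatever its direction. No H3K27me3 window was listed at the basal pair Krt5 and Krt14, and only 9.89% of all protein-coding genes had one. The islands of that pair were higher by the authors' FDR, but the one at Krt5 was not called in the exact binomial test.

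Promoter sequence was compared as a feature that neither mark had chosen. RefSeq promoter windows were at hand for 36 of the 53 keratins, 37 windows in all because Krt13 has 2, and 29 of the 37 have their start at the 5′ end of the annotated gene. Keratin promoters were poor in CpG, with a median of 5 in 300 bases against 13 over 21263 windows of protein-coding genes. Krt7 and Krt18, both simple epithelial, stood apart with 21 and 17 CpG, and no other keratin window had over 11. Of these, Krt18 had a falling H3K27me3 window and Krt7 had none listed; Krt19 was not among the sequences. The sequences shown above hold 2 CpG at Krt13, 6 at Krt5 and 17 at Krt18.

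**Figure D4:**
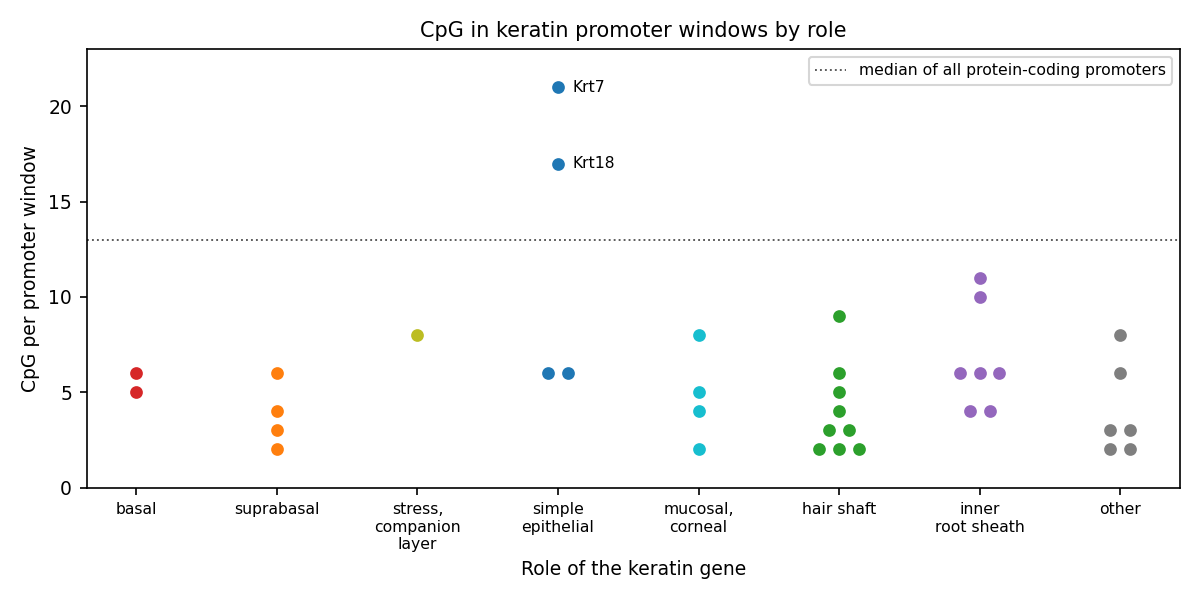
CpG dinucleotides in each of 37 RefSeq promoter windows of keratin genes, grouped by role of the gene, 1 point per window; the dotted line is the median of all protein-coding windows, 13. Krt7 with 21 and Krt18 with 17 lie above that line and all other keratin windows lie below it.

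The following 3 short motifs were searched on both strands: TATAAA, the core of the TATA box, TGANTCA, bound by AP-1, and GCCNNNGGC, bound by AP-2. TATAAA was found in 19 of 37 keratin windows (51.4%), against 12.6% of all protein-coding windows, and in all 7 windows of inner root sheath keratins and 6 of 9 of hair shaft keratins. TGANTCA was found in 2 keratin windows (5.41%, against 6.99%), both of them starts of Krt13 and both inside the lower island. In the Krt13 window shown, the match begins 196 bases before the start and reads TGAATCA, which is neither of the AP-1 sites. GCCNNNGGC was found in 7 windows (18.9%, against 19.9%), among them that of Krt18, where it begins 83 bases before the start. The Krt5 window held none of the 3. These matches describe letters in the windows and were not tested against the marks.

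Genes that work with keratin filaments were counted in the same way. Over all protein-coding genes 12.2% had a lower and 7.19% a higher island, and 7.43% had a falling and 2.64% a rising H3K27me3 window. Among protein-coding genes with an island, 59.2% had a lower and 34.9% a higher one. A list with islands at many genes thus has more lower and higher ones too. The lists are short and no list was tested against these shares. Of 16 desmosome genes, which anchor keratins at cell contacts, 13 had an island (20.6% of all protein-coding genes did), 9 a lower (56.2%) and 3 a higher one (18.8%), with 1 gene counted in both; several are neighbours in 1 cadherin cluster and share islands. The authors' deposited table listed folds of 0.529 at Dsg1c and 0.688 at Dsc2, both desmosomal cadherins, 0.563 at the plakophilin gene Pkp1, and 1.63 at Dsc3, a cadherin of the lower layers. Of 9 plakin and hemidesmosome genes 7 had an island, 4 a lower (44.4%, against 12.2% of all protein-coding genes) and 4 a higher one (44.4%, against 7.19%), 2 of them counted in both. The authors' deposited table listed folds of 0.773 at the epiplakin gene Eppk1, 0.726 at Dst, 1.35 at the hemidesmosome collagen gene Col17a1 and 0.826 at the periplakin gene Ppl. H3K27me3 rose at Dst, which links Krt5 and Krt14 filaments to hemidesmosomes (20.5 mutant and 5.07 WT normalised reads), and at the integrin gene Itga6 (log2 fold 1.25 in the authors' deposited table), and fell at the plakophilin gene Pkp2 (21.0 mutant and 61.5 WT).

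Of 13 filament-bundling and cornified envelope genes, 6 had an island (20.6% of all protein-coding genes did). Of the 13, 4 had a lower (30.8%, against 12.2% of all protein-coding genes) and 1 a higher island (7.69%, against 7.19%, near the share of all genes). The authors' deposited table listed folds of 0.615 at Casp14, a protease of cornification, 0.696 at Ivl, the involucrin gene, 0.782 at Sbsn, the suprabasin gene, and 0.812 at the transglutaminase gene Tgm3. H3K27me3 rose at Lor, the loricrin gene (20.1 mutant and 7.61 WT normalised reads), and at Rptn, the repetin gene (9.77 and 1.59). Of 17 regulators of keratin transcription, 7 had an island. Of the 17, 6 had a lower (35.3%, against 12.2% of all protein-coding genes) and 3 a higher island (17.6%, against 7.19%). The 3 higher ones were at genes that also had a lower one. For the island of smallest FDR at each gene, the authors' deposited table listed folds of 1.47 at Trp63, 1.31 at Vdr, the vitamin D receptor gene, and 1.38 and 0.776 at the grainyhead factor genes Grhl1 and Grhl3. Among these 17, where 7.43% of all protein-coding genes had a falling and 2.64% a rising window, H3K27me3 fell at the follicle regulators Lhx2 (31.2 mutant and 98.0 WT normalised reads), Lef1 (44.5 and 103.8) and Sox9 (34.0 and 65.5) and rose at Trp63 (34.2 and 2.52). Of the 56 keratin-associated protein genes 2 had an island, both from the lower island at Krtap3-3 and its neighbour Krtap3-2, and 0 had an H3K27me3 window.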

How the data were processed

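H3K36me2, H3K27me3 and IgG were profiled by CUT&RUN in 3 mutant and 3 WT mice, 18 libraries of 37 bp paired-end reads per the labels. IgG libraries were not analysed here. The submitters' processing notes name Bowtie2, SICER, DiffBind and DESeq2 and the build GRCm38 (mm10), with no version, and the sources used here state no handling of duplicates. The authors deposited log2 mean normalised reads, a log2 fold, a p-value and an FDR per window of 401 bp, per the file headers. For islands they deposited read counts, RPM and a fold ratio (counts divided by pool totals, after adding 1 to each), plus a p-value and FDR per direction, and the table itself names pool A as mutant and pool B as WT. Pool totals were recovered as count divided by RPM. The sources used here do not say how libraries were merged.

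The deposited tables hold no value per animal, so no new test across animals was made; calls use the authors' FDR under 0.05. Read ratios of pools carry exact binomial 95% intervals, which cover counting error only, and PCR copies are not independent molecules. The exact binomial test was 2-sided, with Benjamini-Hochberg adjustment over all 13409 islands. It was checked on reads simulated from the same binomial model at the pool totals. That check covers the code only, not how well the model fits these pools. The number of windows tested, 18072, is FDR divided by p in the first row. Distances are differences of coordinates, and islands, counted from 0 in the file, were shifted by 1. Every keratin gene with a region was named, as were up to 4 members of each partner list and table by FDR. Members, lists and roles were chosen with earlier results of these data known; roles were assigned after the values were seen. Python 3.11.15, numpy 2.4.6, scipy 1.17.1 and pandas 2.3.3 were used.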

Additional observations from a re-analysis of the deposited data

How the results depend on the processing

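Lower islands outnumbered higher ones with other flanks and at an FDR of 0.01. They did not when the exact binomial test was scaled to the median fold or to the reads in islands. All counts are small and move. With gene bodies only, 5 islands were lower and 1 higher, H3K27me3 fell in 1 window and rose in 0, and by gene 5 had a lower and 1 a higher island, 1 a falling and 0 a rising window. With flanks of 20 kb, 14 islands were lower, 4 genes had a higher island and 6 a rising window. Krt14 alone remained higher at an FDR of 0.01, in the exact binomial test at the pool totals, and when 50% of the island had to lie within the flanked gene (1 island in each case). At an FDR of 0.01, 0 H3K27me3 windows rose. Scaling weighs most: lower islands were 1 of 15 at the median fold and 2 of 15 at the reads in all islands. The read ratio of the chromosome 11 interval was 0.886 scaled to the reads in islands and 0.943 scaled to the median fold; for chromosome 15 it was 0.982 and 1.05, the last on the other side of 1. At the median fold the lower islands at Krt31 and Krt78 also turned, to 1.02 each. The island at Krt72, called in neither direction, moved from 0.899 to 1.10. A loss shared by most islands and a difference in scaling cannot be told apart with these pools. Taken singly, 11 of the 15 islands kept their side of the threshold in the exact binomial test at the pool totals, 8 at the reads in islands, 6 at the median fold and 14 at an FDR of 0.01.

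No paired analysis was possible because the deposited columns are pooled per genotype and no animal belongs to both genotypes; for the same reason no replicate was left out. Depth limits the narrow islands most: the Krt14 ratio rests on 16 WT reads.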
